A study of Homo sapiens with 18 samples.

Results

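Keratins and ovarian carcinoma markers are the proteins by which pathologists recognise a serous carcinoma of the ovary, and 10 of their genes are described here in PEO1 cells: KRT7, KRT8, KRT15, KRT18, KRT19, MUC16, PAX8, WT1, EPCAM and WFDC2. The 10 are defined by gene symbol, were picked with earlier results of these data known, and make up 10 of the 57736 rows of the count table. Each had 1 row of its own, named by a single gene, and each had counts in all 18 samples (at least 49). PEO1 is an established human ovarian cancer line, which the series title describes as bearing mutant p53, and the title asks how that p53 bears on estrogen receptor activity. Cells were transfected either with siControl, a control siRNA, or with sip53, an siRNA that targets p53. All of them then spent 48 h in phenol red-free medium with charcoal-stripped serum, which removes steroid hormones, before 10 nM estradiol (E2). There were 6 groups of 3 samples: siControl without E2 (0 h), siControl after 2 h of E2, siControl after 8 h of E2, and the same 3 times for sip53. The labels call the 0 h samples untreated and do not give the siRNA sequences. They also leave unsaid whether replicates were separate cultures, so a p-value here reflects only how far these samples spread, and that spread may be technical. The groups stand for 1 cell line and 1 labelled siRNA against p53.

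Keratins build the intermediate filaments of epithelial cells. A filament needs a type I keratin (KRT15, KRT18 and KRT19 here) joined to a type II keratin (KRT7 and KRT8 here), and the pairs differ between simple and stratified epithelia: KRT8 with KRT18 is the basic pair of simple epithelia, KRT7 and KRT19 are added in ducts and glands, and KRT15 belongs to basal cells of stratified epithelia. Serous ovarian carcinoma is usually KRT7-positive and carries the nuclear factors PAX8 and WT1, the adhesion protein EPCAM, the mucin MUC16 (source of the serum antigen CA125) and the secreted protein WFDC2 (also called HE4).

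Total counts ran from 7542457 to 10132570 in the siControl libraries and from 9225939 to 11307199 in the sip53 libraries. The shallowest library, siControl 0 h replicate 2, was also the farthest from the other 2 of its group, at a root mean square distance of 0.604 on the log2 scale against 0.445 to 0.583 for the other libraries. For some comparisons with siControl at 0 h, values without replicate 2 are given, and others not given moved too. At 0 h, leaving replicate 2 out kept the sip53 calls of KRT7 (log2 fold change 0.46, edgeR adjusted p = 0.0157), KRT18 (0.35, adjusted p = 0.035) and KRT19 (0.50, adjusted p = 0.0073) and ended that of KRT8. Of the genes not called at 0 h, EPCAM went from 0.19 to 0.09 and MUC16 from -0.35 to -0.24. The library numbers in the labels run through the siControl samples first and the sip53 samples after them, so that order and the siRNA cannot be told apart. The labelled cell type was checked against markers of other cells: DCN and LUM of fibroblasts, PTPRC and CD3E of leukocytes were at 0 in every library, and the 4 of 5 endothelial markers found in the table summed to at most 0.916 CPM (counts scaled to a common library size) in siControl and 1.07 CPM in sip53 libraries. The mesothelial list, which matters because mesothelium also makes WT1 and keratins, summed to 8.58 to 14.7 CPM in siControl and 10.8 to 17.4 CPM in sip53, with HP at 0. The leukocyte list, with 2 of 7 markers at 0, summed to 9.21 to 19.9 CPM in siControl and 14.1 to 17.1 CPM in sip53, and the fibroblast list, with 4 of 7 at 0, to 4.64 to 13.1 CPM and 6.04 to 13.3 CPM. Of the mesothelial list, UPK3B averaged 7.32 CPM in siControl and 9.63 CPM in sip53, and CALB2 4.58 and 3.23 CPM. Of the leukocyte list, CD14 averaged 5.54 and 6.64 CPM and CD68 8.77 and 8.95 CPM. In the fibroblast list COL1A1 rose with sip53 on average over the 3 times (log2 fold change 0.45 ± 0.15, edgeR adjusted p = 0.0194), at 4.64 to 12.8 CPM in siControl and 6.04 to 13.3 CPM in sip53, and its part in other results was not tested.

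Start-site sequence was at hand for 5 of the 10 genes in the RefSeq promoter table (build GRCh38.p14): KRT8, MUC16, PAX8, WT1 and WFDC2. The 250 bases before the start site are printed for the 3 of them that passed a test in some comparison (KRT8, WT1 and PAX8) and for WFDC2, which passed none and stands for comparison. They are written 5′ to 3′ on the gene's own strand, and capitals mark a match to a searched motif.
KRT8: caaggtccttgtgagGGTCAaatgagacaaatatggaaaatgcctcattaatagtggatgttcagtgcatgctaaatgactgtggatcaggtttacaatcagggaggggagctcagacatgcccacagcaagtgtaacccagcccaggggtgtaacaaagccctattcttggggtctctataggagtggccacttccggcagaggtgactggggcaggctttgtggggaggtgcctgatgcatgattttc
WT1: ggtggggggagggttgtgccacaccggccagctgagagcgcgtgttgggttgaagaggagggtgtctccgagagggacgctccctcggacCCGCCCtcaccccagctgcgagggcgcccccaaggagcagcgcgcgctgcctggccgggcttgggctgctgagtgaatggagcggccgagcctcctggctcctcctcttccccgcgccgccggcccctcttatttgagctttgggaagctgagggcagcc
PAX8: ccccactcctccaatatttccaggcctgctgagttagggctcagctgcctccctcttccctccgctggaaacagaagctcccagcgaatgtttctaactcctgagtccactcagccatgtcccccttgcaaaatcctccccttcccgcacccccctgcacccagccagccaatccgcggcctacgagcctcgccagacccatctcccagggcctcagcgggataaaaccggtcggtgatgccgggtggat
WFDC2: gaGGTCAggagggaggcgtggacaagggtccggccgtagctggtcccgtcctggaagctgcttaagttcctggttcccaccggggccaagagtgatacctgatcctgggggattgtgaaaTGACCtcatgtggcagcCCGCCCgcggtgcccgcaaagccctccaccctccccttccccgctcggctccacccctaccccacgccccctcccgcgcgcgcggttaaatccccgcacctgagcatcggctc
These windows lie at chr12:52926470-52926719 (KRT8, minus strand), chr11:32435540-32435789 (WT1, minus strand), chr2:113278922-113279171 (PAX8, minus strand) and chr20:45469503-45469752 (WFDC2, plus strand). The KRT8 window lies inside the gene's GENCODE v29 span (chr12:52897187-52949954). That of MUC16 (chr19:9065752-9066001, minus strand) lies outside the gene's span there (chr19:8848844-8981342). For these 2 genes the window thus does not reach the start of the GENCODE span. The windows of WT1, PAX8 and WFDC2 include that start, so there the RefSeq start site differs from it by less than 250 bases. Which site PEO1 uses was not tested. Both strands were searched for the palindromic estrogen response element GGTCANNNTGACC, for its single arm GGTCA, for the AP-1 site TGANTCA, for the GC box GGGCGG and for the TATA box TATAAA; every palindrome holds the single arm on each strand. The palindrome was in 0 of the 5 windows and in 0.0399% of all 35116 promoter windows of that length. The single arm was found once in KRT8 (at -235 from the start site, plus strand) and in 2 places in WFDC2 (at -248 on the plus strand and at -130 on the minus strand, where it reads TGACC), against 32.6% of all windows. A GC box on the minus strand, which reads CCGCCC, was present in MUC16, WT1 and WFDC2, against 42.6% of all windows. No AP-1 site or TATA box was among the letters of the 5 windows (6.57% and 10.7% of all windows). PAX8 held no match at all, and its GC content of 61.6% was near the 58.0% median of all windows, while that of WT1 was 70.4% and that of KRT8 was 50.4%.

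Counts here come from 3′-end libraries, so a CPM value (a count scaled to a common library size, here by the trimmed mean of M values, TMM) counts transcript ends and is not divided by length. On that scale KRT7, KRT18 and KRT19 lay between 1099 and 2180 CPM in every library, KRT8 between 301 and 617, EPCAM between 435 and 658, PAX8 between 96.1 and 149, and KRT15 between 36.2 and 182. MUC16 (23.3 to 53.4 CPM), WFDC2 (18.2 to 37.8 CPM) and WT1 (6.29 to 15.6 CPM) were low in all 18 libraries. The line thus had RNA of the simple-epithelial keratins and of each of the 5 carcinoma markers. SOX17, a factor often found with PAX8 in serous carcinoma, was at 0 in every library. The mesenchymal filament gene VIM averaged 2.27 CPM in siControl samples. Other genes of the mesenchymal list were high there, FN1 at 1262 CPM, TGFBI at 288 CPM and SPARC at 202 CPM, and the rest averaged at most 15.6 CPM.

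**Figure D1:**
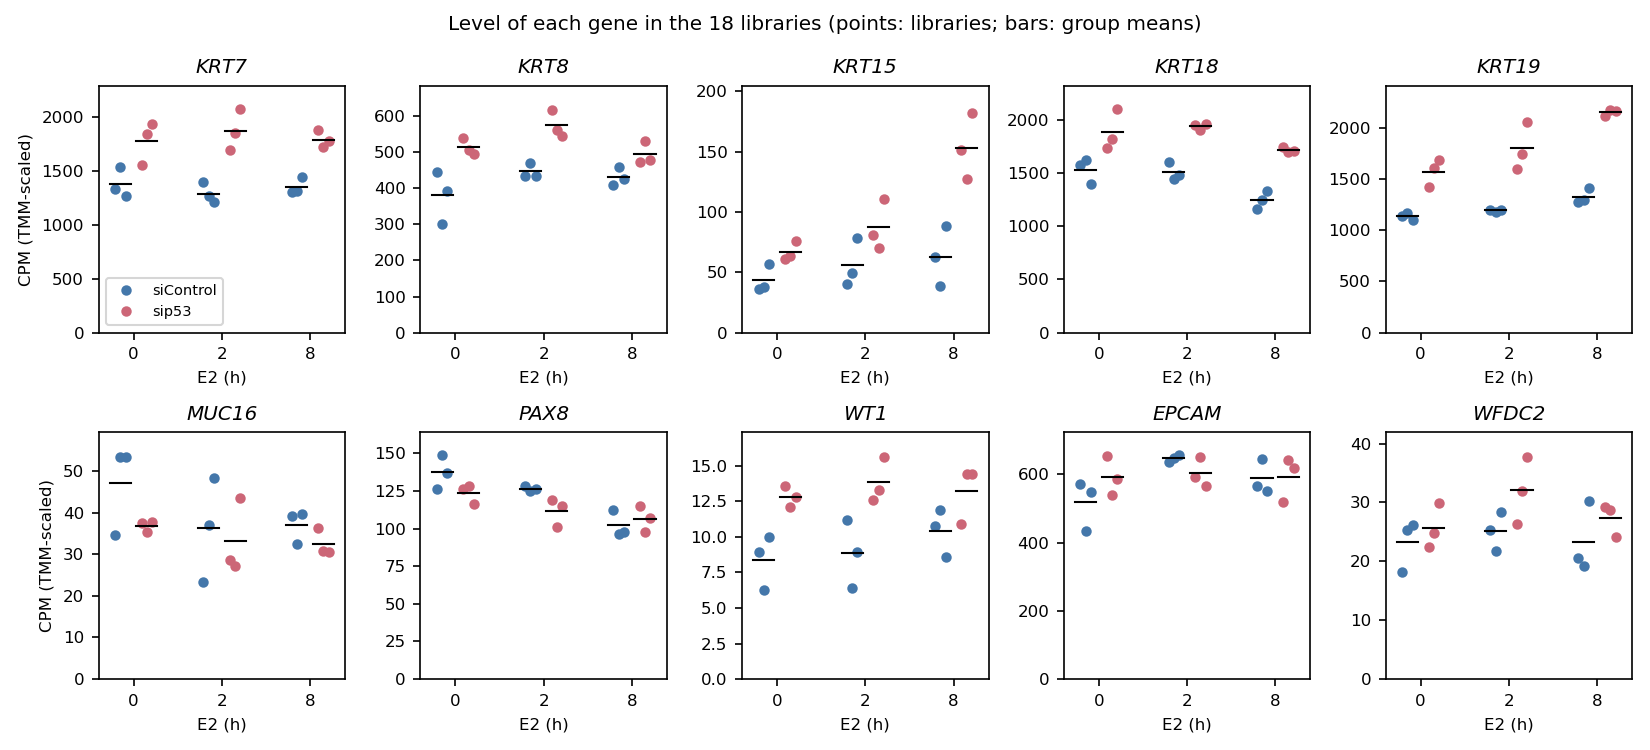
Level of each of the 10 genes in the 18 libraries, in CPM on a linear axis that starts at 0, against hours of E2. Blue points are siControl libraries, red points are sip53 libraries and black bars are group means of 3; for KRT7, KRT8, KRT18 and KRT19 all sip53 points lie above the siControl points at each time.

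All 5 keratins were higher after p53 knockdown. Averaged over the 3 times, KRT7, KRT8, KRT15, KRT18 and KRT19 all rose with sip53, by 1.26-fold to 1.8-fold, and so did WT1, by 1.44-fold. MUC16, PAX8, EPCAM and WFDC2 did not pass the test. That made 6 of the 10 genes called higher and 0 lower, where 16.1% of all 15318 genes tested were called higher and 18.5% lower in the same average. Over the 10 genes the median log2 difference was 0.35, against 0.00761 over all genes tested. Each single time had 4 of the 10 called higher and 0 lower. Of all genes, 3.98% were called higher and 5.14% lower at 0 h, 4.42% and 7.79% at 2 h, and 2.81% and 6.14% at 8 h. A gene was called when its adjusted p in edgeR's quasi-likelihood test (Benjamini-Hochberg over all genes tested) was under 0.05.

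KRT19, a type I keratin of ducts and glands, had the smallest adjusted p of the 10. Without E2 it stood at 1141, 1173 and 1099 CPM in siControl and at 1425, 1611 and 1686 CPM in sip53. After 2 h it was at 1201, 1182 and 1203 CPM in siControl and at 1596, 1749 and 2062 CPM in sip53, and after 8 h at 1277, 1300 and 1410 CPM against 2118, 2180 and 2167 CPM. Every sip53 library was above every siControl library, also across times. The log2 difference was 0.47 ± 0.09 (SE) at 0 h, 0.59 ± 0.09 at 2 h and 0.70 ± 0.09 at 8 h, with edgeR adjusted p = 0.00306, 0.000316 and 8.58e-05, and 0.59 ± 0.05 on average (adjusted p = 4.65e-08). A fit to the 0 h groups alone gave 0.46 ± 0.11 with an adjusted p of 0.0544.

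KRT18, the type I partner of KRT8, was at 1574, 1626 and 1402 CPM in siControl and 1734, 1823 and 2102 CPM in sip53 before E2. The 2 h libraries held 1607, 1442 and 1479 CPM in siControl and 1951, 1909 and 1967 CPM in sip53. At 8 h the values were 1165, 1247 and 1329 CPM in siControl and 1743, 1701 and 1713 CPM in sip53. Here too the 9 sip53 libraries lay above all 9 siControl libraries. The difference was called at 0 h (0.30 ± 0.09, edgeR adjusted p = 0.0327), 2 h (0.36 ± 0.09, adjusted p = 0.00798) and 8 h (0.46 ± 0.09, adjusted p = 0.00226), and averaged 0.38 ± 0.05. The 0 h call ended without siControl replicate 3 (0.23, adjusted p = 0.152), without sip53 replicate 2 (0.33, adjusted p = 0.071), without sip53 replicate 3 (0.22, adjusted p = 0.221), and where only those 6 libraries were fitted (0.29, adjusted p = 0.194).

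KRT7, the type II keratin by which ovarian carcinoma is commonly told from colorectal carcinoma, stood at 1335, 1539 and 1270 CPM in siControl and 1550, 1845 and 1937 CPM in sip53 at 0 h. Its 2 h values were 1395, 1263 and 1209 CPM in siControl and 1695, 1851 and 2074 CPM in sip53. Its 8 h values were 1305, 1311 and 1439 CPM against 1874, 1718 and 1775 CPM. Again no siControl library reached a sip53 library. The log2 differences were 0.36 ± 0.10 at 0 h (edgeR adjusted p = 0.0256), 0.54 ± 0.10 at 2 h (adjusted p = 0.0016) and 0.40 ± 0.10 at 8 h (adjusted p = 0.0133), with a mean of 0.44 ± 0.06. The 0 h call ended on leaving out sip53 replicate 2 (adjusted p = 0.0975), sip53 replicate 3 (0.154) or siControl replicate 3 (0.119), and in a fit of those groups by themselves (0.144). The 8 h call ended on leaving out sip53 replicate 1 (0.0708), siControl replicate 2 (0.0604) or siControl replicate 1 (0.0751).

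KRT8, the type II partner of KRT18, had the smallest average difference of the 5 keratins, 0.33 ± 0.06 (edgeR adjusted p = 0.000276). Before E2 it was at 446, 301 and 393 CPM in siControl and at 538, 506 and 496 CPM in sip53, where the low value of 301 belongs to the shallowest library. At 2 h it was at 435, 471 and 435 CPM against 617, 561 and 545 CPM, and at 8 h at 408, 458 and 427 CPM against 473, 532 and 479 CPM. The groups did not overlap at any time, and the 8 h gap was the narrowest. It was called at 0 h (0.43 ± 0.11, adjusted p = 0.0164) and at 2 h (0.36 ± 0.11, adjusted p = 0.0305), and not at 8 h (0.20 ± 0.11, adjusted p = 0.264). Without siControl replicate 2 the 0 h difference was 0.30 ± 0.10 (adjusted p = 0.0708), without sip53 replicate 3 it was 0.46 (adjusted p = 0.0524), with length and GC trends removed it was 0.35 (adjusted p = 0.0644), and with only the 0 h groups fitted it was 0.43 ± 0.14 (adjusted p = 0.112); the 2 h call was lost on leaving out any 1 of its 6 libraries (adjusted p = 0.051 to 0.124) and with those trends removed (0.24, adjusted p = 0.204).

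KRT8 and KRT18 lie on chromosome 12 on opposite strands, and their gene spans in GENCODE v29 (GRCh38) overlap by 1084 bases (KRT8 at chr12:52897187-52949954, KRT18 at chr12:52948871-52952901). The shared stretch lies at the 5′ end of both spans, while these libraries were made from 3′ ends, and reads in it were not counted apart. No source used here gives the strand setting of the counting, so any reads from the shared stretch could have been split between them. Processed pseudogenes of both are common in the genome: 51 rows carried a KRT8 pseudogene symbol and 67 a KRT18 pseudogene symbol. Their counts came to at most 0.359% of those of KRT8 and 0.284% of those of KRT18 in any library. Summing them with the parent gene changed no call.

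KRT15, the basal type I keratin, passed the test at 8 h and on average. At 0 h and 2 h it did not pass, but did so with no filter on low counts (edgeR adjusted p = 6.91e-05 and 7.56e-06) and under some other settings. At 0 h it stood at 36.2, 37.9 and 57.2 CPM in siControl and 60.9, 63.7 and 76.2 CPM in sip53. At 2 h it stood at 40, 49.5 and 78.2 CPM against 81.1, 70.1 and 111 CPM, and at 8 h at 62.6, 38.3 and 88.2 CPM against 151, 127 and 182 CPM. The 2 h groups overlapped, and the 0 h and 8 h groups did not. Replicate 3 was the highest of its group in 6 of 6 groups. The log2 difference was 0.61 ± 0.25 at 0 h (edgeR adjusted p = 0.129), 0.65 ± 0.25 at 2 h (adjusted p = 0.0935) and 1.28 ± 0.25 at 8 h (adjusted p = 0.00309), the largest of the 10 genes at that time, and 0.85 ± 0.14 on average (adjusted p = 0.000101). KRT15 neighbours KRT19 on chromosome 17: KRT15 spans chr17:41513743-41522529 and KRT19 spans chr17:41523617-41528308, both on the minus strand with 1087 bases between them.

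WT1, a zinc-finger transcription factor used as a nuclear marker of serous carcinoma, was the one marker outside the keratins that rose. It had 49 to 107 counts per library in siControl and 113 to 173 in sip53. In CPM it was at 8.91, 6.29 and 10 in siControl and 13.6, 12.1 and 12.8 in sip53 at 0 h, at 11.2, 6.41 and 8.91 against 12.6, 13.3 and 15.6 at 2 h, and at 10.8, 11.9 and 8.6 against 10.9, 14.4 and 14.4 at 8 h. The groups stood apart at 0 h and 2 h and overlapped at 8 h. The average log2 difference was 0.53 ± 0.12 (edgeR adjusted p = 0.00182), while no single time passed in the same fit: 0.60 ± 0.22 at 0 h (adjusted p = 0.078), 0.64 ± 0.21 at 2 h (adjusted p = 0.0501) and 0.34 ± 0.21 at 8 h (adjusted p = 0.328). The 2 h difference sat at the threshold and passed with RLE scaling (adjusted p = 0.0464), with upper-quartile scaling (0.0364), with length and GC trends removed (0.0396), in a fit of the 2 h groups by themselves (0.0387) and with DESeq2 (0.0368), and the 0 h difference passed with those trends removed (0.0481). Without siControl 0 h replicate 2, which had the lowest WT1 value of all, the 0 h difference was 0.45 (adjusted p = 0.251). The divergent transcript WT1-AS had 35 to 66 counts per library, and without the strand setting its reads and those of WT1 cannot be told apart where they overlap; KRT7-AS had 0 counts and PAX8-AS1 at most 9.

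The 4 remaining markers did not pass the test at any time or on average, though each passed on average under some other setting. PAX8, the paired-box factor of Müllerian epithelium, was at 126, 149 and 137 CPM in siControl and 126, 128 and 116 CPM in sip53 at 0 h, and its average log2 difference was -0.09 ± 0.06 (edgeR adjusted p = 0.257). EPCAM, a homophilic adhesion glycoprotein, ranged from 435 to 658 CPM in siControl (median 572) and from 520 to 655 CPM in sip53 (median 591), a difference of 0.04 ± 0.06 (adjusted p = 0.703) that was 0.17 ± 0.06 (adjusted p = 0.0278) with length and GC trends removed. At 2 h the 3 sip53 values of PAX8 (119, 101 and 115 CPM) lay below the siControl values (128, 125 and 126 CPM), with a difference of -0.17 ± 0.10 that did not pass (adjusted p = 0.285). MUC16, the CA125 mucin, ranged from 23.3 to 53.4 CPM in siControl (median 39.3) and from 27.2 to 43.5 CPM in sip53 (median 35.4), at -0.22 ± 0.12 (adjusted p = 0.161). WFDC2, a small secreted protein with protease-inhibitor domains, ranged from 18.2 to 30.3 CPM (median 25.3) against 22.4 to 37.8 CPM (median 28.7), at 0.24 ± 0.11 (adjusted p = 0.0819). Over all times the arms overlapped for each of the 4.

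**Figure D2:**
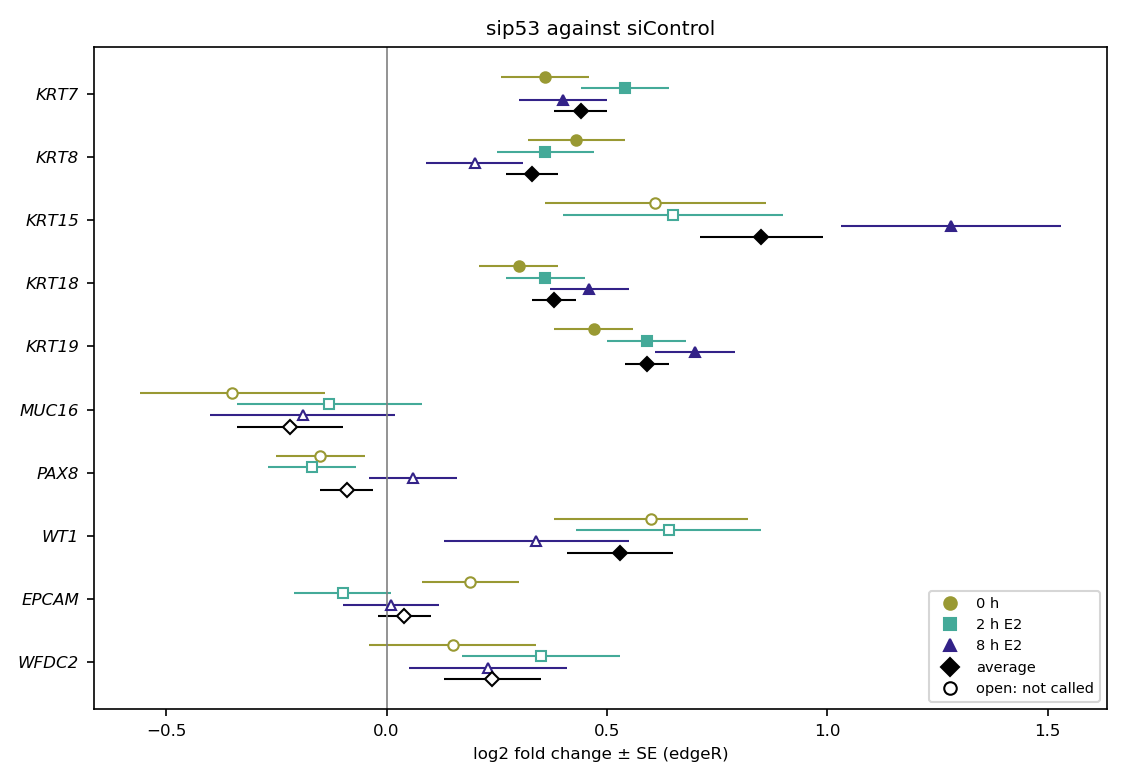
Log2 fold change of sip53 against siControl for each gene, with bars of ± 1 SE from edgeR, at 0 h, 2 h and 8 h and averaged over the 3 times; filled symbols passed an adjusted p of 0.05. The 5 keratins lie right of 0 at every time, while MUC16, PAX8 and EPCAM lie near or left of 0 on average.

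Counted without a model, 4 of the 10 genes (KRT7, KRT8, KRT18 and KRT19) had all 3 sip53 libraries above all 3 siControl libraries at each of the 3 times, against 4.15% of all genes tested, and in these 4 the 9 sip53 libraries also lay above all 9 siControl libraries, against 1.56%. Called higher at each of the 3 times were 3 of the 10 (KRT7, KRT18 and KRT19), against 1.04% of all genes. The siControl libraries were on the whole shallower than the sip53 libraries, and the part of depth in these differences was not tested.

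Few of these genes passed the test after E2. At 2 h edgeR called 0 of the 10 in either arm, where 0.228% of all genes were called in siControl and 0.307% in sip53; 2 of the 10 had an unadjusted p under 0.05 in siControl and 1 in sip53, against 1748 and 1139 of all 15318 genes, and DESeq2 also called 0. After 8 h of E2 1 of the 10 was called in siControl, PAX8, which fell (0.823% of all genes were called lower and 1.78% higher), and 2 of the 10 in sip53, KRT15 and KRT19, which rose (1.55% of all genes were called higher and 1.18% lower). These comparisons share their 0 h and 8 h libraries with the knockdown comparisons above, so the values are set side by side and are not independent.

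KRT15 in sip53 libraries went from 60.9, 63.7 and 76.2 CPM at 0 h through 81.1, 70.1 and 111 CPM at 2 h to 151, 127 and 182 CPM at 8 h, with every 8 h library above every earlier one. That is a log2 change of 1.20 ± 0.25 over 8 h (edgeR adjusted p = 0.00689). In siControl, where the 3 times overlapped, the change was 0.53 ± 0.26 (adjusted p = 0.294). The difference between those responses was 0.67 ± 0.35 on the log2 scale (adjusted p = 0.999), so a difference between the arms was not shown.

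KRT19 in sip53 rose from a mean of 1574 ± 134 CPM (SD, n = 3) at 0 h to 2155 ± 32.6 CPM at 8 h, by 0.45 ± 0.09 on the log2 scale (edgeR adjusted p = 0.0048). In siControl it went from 1137 ± 37.2 to 1329 ± 71.3 CPM, 0.22 ± 0.09 (adjusted p = 0.19), with the 8 h libraries above the 0 h libraries. The difference between the responses was 0.23 ± 0.13 (adjusted p = 0.999).

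PAX8 in siControl fell by 0.43 ± 0.10 on the log2 scale over 8 h (edgeR adjusted p = 0.0193). Its values were 126, 149 and 137 CPM at 0 h, 128, 125 and 126 CPM at 2 h and 112, 96.1 and 98 CPM at 8 h, so all 8 h libraries lay below the others. In sip53 it was at 126, 128 and 116 CPM at 0 h and 115, 97.8 and 107 CPM at 8 h, also below in every library, with a change of -0.21 ± 0.10 that did not pass (adjusted p = 0.328). The difference between the arms was 0.22 ± 0.14 (adjusted p = 0.999). The siControl call was lost without 0 h replicate 2, the shallowest library (-0.36, adjusted p = 0.0997), without 8 h replicate 2 (-0.39, adjusted p = 0.119), without 8 h replicate 3 (-0.41, adjusted p = 0.0779), and where only those 6 libraries were fitted (-0.44, adjusted p = 0.107).

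KRT18 did not pass the test after E2. In siControl it went from a mean of 1534 ± 117 CPM at 0 h to 1247 ± 81.9 CPM at 8 h (n = 3), a log2 change of -0.30 ± 0.09 that missed the threshold (edgeR adjusted p = 0.064), although the 8 h libraries were all below the 0 h libraries; without 0 h replicate 2 it was -0.25 (adjusted p = 0.246). In sip53 the change was -0.13 ± 0.09 (adjusted p = 0.512). The ratio of KRT19 to KRT18 CPM was 0.743 ± 0.035 in siControl at 0 h, 0.794 ± 0.0403 at 2 h and 1.07 ± 0.0271 at 8 h, and in sip53 it was 0.836 ± 0.0425, 0.927 ± 0.115 and 1.25 ± 0.0348. In both arms every 8 h ratio lay above all earlier ones. The ratio of KRT18 to KRT8 CPM was 4.17 ± 1.06, 3.38 ± 0.317 and 2.9 ± 0.196 in siControl at 0 h, 2 h and 8 h. In sip53 it was 3.69 ± 0.513, 3.39 ± 0.224 and 3.49 ± 0.258. Neither ratio was tested, and each describes the balance of 2 keratin RNAs within each library.

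Of the others, KRT7 changed by -0.03 ± 0.10 in siControl and 0.01 ± 0.10 in sip53 at 8 h, on the log2 scale. KRT8 did so by 0.18 ± 0.11 and -0.05 ± 0.11, EPCAM by 0.18 ± 0.11 and 0.00 ± 0.11, WT1 by 0.31 ± 0.22 and 0.05 ± 0.21, MUC16 by -0.34 ± 0.21 and -0.18 ± 0.21, and WFDC2 by 0.01 ± 0.19 and 0.09 ± 0.18 over the same 8 h. None of these passed the test. Without siControl 0 h replicate 2 the siControl changes were nearer to 0, at 0.04 for KRT8, 0.07 for EPCAM, 0.14 for WT1 and -0.24 for MUC16; that of KRT7 was 0.06 and that of WFDC2 was 0.09. EPCAM at 2 h in siControl had all 3 libraries (635, 649 and 658 CPM) above the 0 h libraries (572, 435 and 549 CPM), with a log2 change of 0.32 ± 0.11 that did not pass (edgeR adjusted p = 0.285) and was 0.22 without 0 h replicate 2. When the E2 response was compared between arms, edgeR called 0 of the 10 genes at 2 h and at 8 h, and 0 had an unadjusted p under 0.05. DESeq2 called 0 of the 10 as well. Over all genes edgeR called 0 (0% of those tested), with 451 and 583 genes at an unadjusted p under 0.05.

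**Figure D3:**
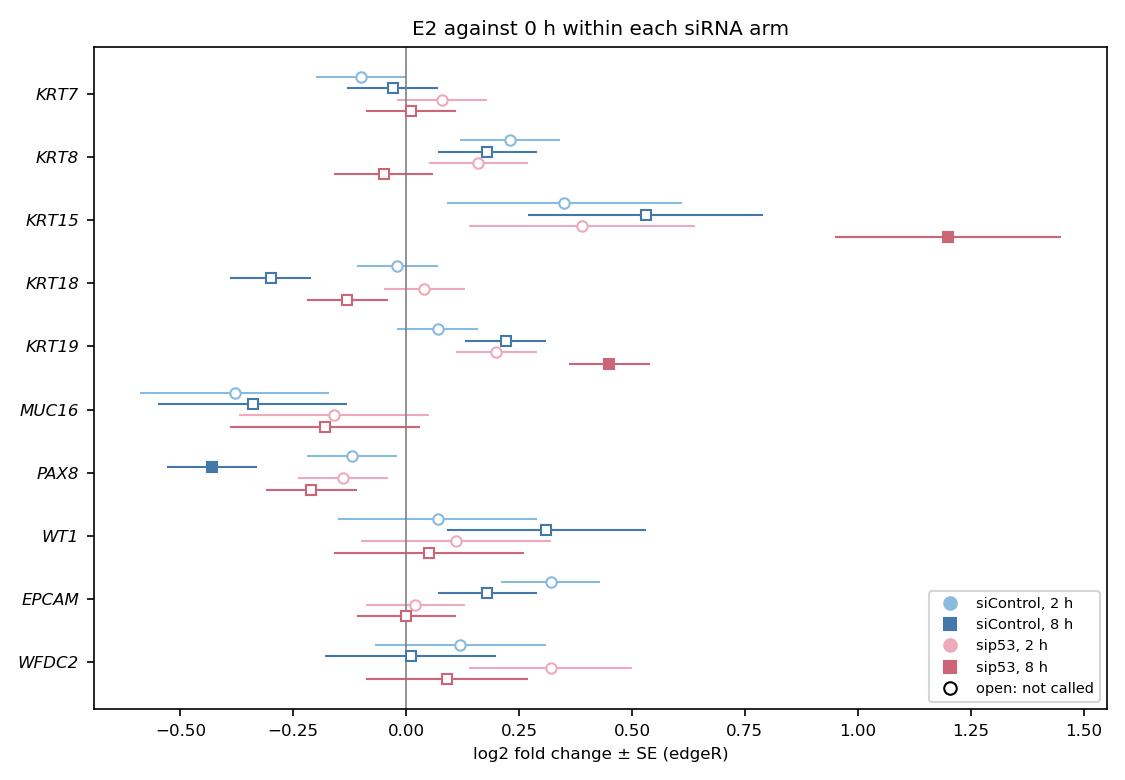
Log2 fold change of E2 against 0 h within each siRNA arm for each gene, with bars of ± 1 SE from edgeR; circles are 2 h, squares 8 h, blue siControl and red sip53, and filled symbols passed an adjusted p of 0.05. The filled symbols are KRT15 and KRT19 in sip53 at 8 h, to the right of 0, and PAX8 in siControl at 8 h, to the left.

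Most of the other keratins tested were higher with sip53 as well. Of 34 further type I and type II keratin genes, 12 passed the filter on low counts and 10 had no count in any library. Averaged over the 3 times, 7 of the 12 were called higher with sip53 and 0 lower, with a median log2 difference of 0.29; over all genes 16.1% were called higher and 18.5% lower in this average. KRT5, the type II keratin of basal cells, rose by 0.67 ± 0.06 (edgeR adjusted p = 6.14e-08), from 276 to 418 CPM in siControl to 489 to 698 CPM in sip53, and was called at each time (0.69, 0.63 and 0.68). KRT80 rose by 0.29 ± 0.05 and KRT81, a hair keratin, by 0.32 ± 0.06; KRT81 reads may be shared with its near-identical neighbours, and those of KRT16 with its close relatives, so their levels are uncertain. KRT14, the usual partner of KRT5, had at most 5 counts in any library, and KRT20, the keratin of intestinal epithelium, had none. After 8 h of E2 in sip53, 3 of the 12 were called higher, KRT13, KRT16 and KRT23, against 1.55% of all genes. They changed by 1.78 ± 0.42, 0.78 ± 0.18 and 0.59 ± 0.15 on the log2 scale. In siControl they changed by 0.81 ± 0.45, 0.30 ± 0.19 and 0.39 ± 0.15, which did not pass. KRT13 had at most 82 counts in any library. In siControl 1 of the 12 was called lower after 8 h, KRT4 (-0.75 ± 0.20), against 0.823% of all genes. In sip53 KRT4 changed by -0.24 ± 0.19, which did not pass. For none of these genes did the difference between arms pass (edgeR adjusted p = 0.999).

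Of 16 desmosome and keratin-linker genes tested, 3 were called higher with sip53 on average, near the 16.1% of all genes, and 7 were called lower, against 18.5% of all genes, with a median of -0.05. DST, which links keratin to hemidesmosomes, fell by 0.86 ± 0.10 (276 ± 34.2 to 153 ± 43.4 CPM, SD, n = 9 per arm), ITGA6, the laminin receptor of hemidesmosomes, by 0.70 ± 0.09, and the keratin-binding TCHP by 0.52 ± 0.08. The desmosomal linkers PPL, JUP and PKP3 rose by 0.28 ± 0.07, 0.16 ± 0.05 and 0.20 ± 0.07. Other desmosomal genes were called lower: DSP (-0.32 ± 0.07), DSC3 (-0.22 ± 0.07) and DSC2 (-0.17 ± 0.06). PKP4 was called lower too (-0.24 ± 0.06), so desmosomal genes were called in both directions.

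Junction genes and partners of EPCAM were called in both directions too, 8 of 23 higher and 5 lower on average (16.1% and 18.5% of all genes), with a median of 0.14. The sheddases ADAM10 and ADAM17 rose by 0.34 ± 0.05 and 0.30 ± 0.05. The tight-junction scaffold TJP1 fell by 0.59 ± 0.08, and the epithelial regulators GRHL2 and ESRP1 by 0.38 ± 0.08 and 0.27 ± 0.06. After 8 h of E2 in siControl, 5 of the 23 were called higher, against 1.78% of all genes. Among them were the junction genes CGN (0.46 ± 0.09, edgeR adjusted p = 0.00574), OCLN (0.48 ± 0.10, adjusted p = 0.0122) and CDH1 (0.48 ± 0.13, adjusted p = 0.0493). The splicing regulator ESRP1 was another (0.38 ± 0.10, adjusted p = 0.0413). In sip53 these genes changed by 0.10, 0.14, 0.33 and 0.12, which did not pass. The difference between arms did not pass for any of them (adjusted p = 0.999).

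Of 24 further serous carcinoma genes tested, 7 were called higher with sip53 on average, against 16.1% of all genes, and 3 lower, a smaller share than the 18.5% of all genes, with a median of 0.20. CDH6, a cadherin of the nephron and of serous carcinoma, rose by 0.79 ± 0.13 (13.1 ± 5.15 to 22.1 ± 4 CPM, n = 9 per arm), and the kallikrein proteases KLK5 and KLK10 by 0.61 ± 0.12 and 0.50 ± 0.09. KLK7, MUC4 and HOXA9 fell by 0.32 ± 0.09, 0.51 ± 0.14 and 0.73 ± 0.25. HOXA9 had at most 51 counts in any library. Its difference was called at 0 h (-1.55 ± 0.44) and not at 2 h (-0.16 ± 0.44) or 8 h (-0.47 ± 0.40). So within the kallikreins KLK7 was called in the direction opposite to KLK5 and KLK10. Among 14 mesenchymal genes 3 were called higher (SPARC 0.35 ± 0.06, TGFBI 0.27 ± 0.08, S100A4 0.88 ± 0.27) and 3 lower (CDH11 -0.57 ± 0.12, ITGA5 -0.40 ± 0.11, ZEB1 -1.43 ± 0.43), with a median of -0.35. Both counts are near the 16.1% and 18.5% of all genes and are no result about the list. S100A4 and ZEB1 were near the filter, with at most 26 and 24 counts in any library.

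**Figure D4:**
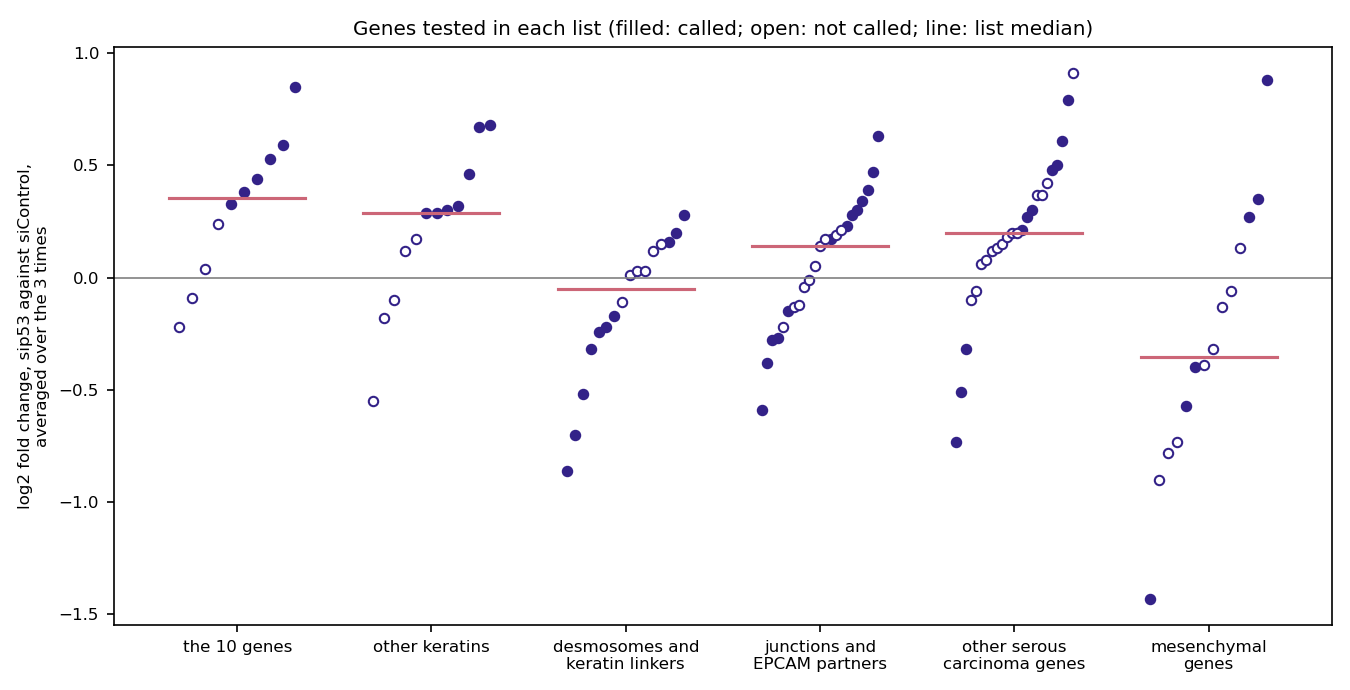
Average log2 fold change of sip53 against siControl over the 3 times for every gene tested in the set of 10 and in 5 further lists; each point is a gene, filled points passed an adjusted p of 0.05 in edgeR and red lines are list medians. All filled points of the columns for the 10 genes and the other keratins lie above 0, while the other 4 lists have filled points on both sides.

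Across the 18 libraries the 10 genes did not vary as one. Pearson's r of log2 CPM was 0.86 between KRT7 and KRT19, 0.84 between KRT7 and KRT18 and 0.86 between KRT15 and KRT19, but 0.56 between KRT8 and KRT18 and 0.37 between KRT15 and KRT18. EPCAM had r of -0.18 to 0.60 with the keratins and PAX8 had -0.53 to 0.11. Among 9878 genes with an average log2 CPM of at least 3, the closest in pattern were GSTP1 for KRT7 (r = 0.98), IDI1 for KRT8 (0.95), ENTPD6 for KRT18 (0.95), SLC48A1 for KRT19 (0.97) and KLK6 for KRT15 (0.90), with KRT23 at 0.89 for KRT15. For the markers they were ABCC5 for MUC16 (0.87), COL27A1 for PAX8 (0.90), ABT1 for WT1 (0.89), SMIM30 for EPCAM (0.88) and OS9 for WFDC2 (0.82). These values describe the 18 libraries, which share their arm, time and depth, and carry no test.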

How the data were processed

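RNA of 18 PEO1 samples was sequenced from 3′ ends with the QuantSeq 3′ mRNA-Seq V2 FWD kit (200 ng of RNA, 16 PCR cycles), per the labels' protocols. The authors deposited 1 table of RSEM expected counts per gene, with 57736 rows and whole numbers throughout, so rounding moved none. Per the submitters' processing notes the tools were cutadapt, Bowtie2, RSEM 1.3.3 and MultiQC, with build hg19; no source used here gives the annotation. Rows were named through their transcripts in GENCODE v29 (GRCh38); rows without a name held 0.635% of counts and entered the fit unnamed. Gene coordinates printed are those of GRCh38, and none was converted. Reads shared by close relatives, overlapping genes or antisense partners may have been divided by the expected counts.

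Tests used edgeR 4.0.16 in R 4.3.3: filterByExpr (minimum count 10, 15318 genes kept, all 10 members among them), TMM scaling, and 1 quasi-likelihood fit of all 18 samples with 1 coefficient per group. Its 10 contrasts were sip53 against siControl at 3 times and on average, E2 at 2 h and 8 h against 0 h per arm, and how these E2 responses differed between arms. The threshold was a Benjamini-Hochberg adjusted p of 0.05 over all genes within a contrast. The SE of a log2 fold change is its size divided by the square root of F. The biological coefficient of variation was 15.2%. Replicates within a group differed beyond counting noise (chi-square per degree of freedom 4.04 to 22.92). The code was tested on simulated data. Alternatives were RLE and upper-quartile scaling, no filter, DESeq2 1.42.0, a fit to the 2 groups compared, a replicate block, removal of length and GC trends (with and without the block), leaving out each library, and summing keratins with their pseudogenes.

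The members and gene lists were chosen with earlier results of these data known. From each further list up to 3 called genes per direction with the smallest adjusted p in the average were to be named. KRT13, KRT14, KRT16, KRT20, KRT23, KRT4, CGN, OCLN, CDH1, VIM, FN1, SOX17 and COL1A1 were added after their values were seen. So were DSP, DSC2, DSC3, PKP4, CALB2, UPK3B, CD14 and CD68. The level of the siRNA's own target, and certain other genes, are not reported here.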

Additional observations from a re-analysis of the deposited data

How the results depend on the processing

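Of 1660 values of single genes under the alternatives, 1603 stayed on the same side of the threshold, 30 calls were lost, 27 were gained and 0 called values changed sign; 65 values within 1 SE of 0 turned sign. The 6 genes called on average kept their calls in 18 of 18 fits that left out a library and in each other alternative run. The number of members called at 0 h was 4, 0 in a fit to the 2 groups alone, and 1 to 4 when 1 library was left out. For 8 h of E2 in siControl it was 1, 2 with DESeq2 (KRT18 added, adjusted p = 0.00958), 2 with no filter (KRT15 added), 0 in a fit to the 2 groups alone, and 0 to 2 when 1 library was left out. Fits to the 2 groups alone called 6 members with sip53 at 2 h and 4 at 8 h, against 4 and 4 in the main fit. The cause of the changes at 0 h and after E2 was not tested. The other 8 counts stayed within 1.5 times of their values.

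Gained calls include KRT15 at 0 h and 2 h with no filter (adjusted p = 6.91e-05 and 7.56e-06), EPCAM with length and GC trends removed at 0 h (0.32, adjusted p = 0.0444) and on average (0.17, adjusted p = 0.0278), and 3 further averages: WFDC2 with no filter (0.25, adjusted p = 0.0391) or without siControl 8 h replicate 3 (0.32, adjusted p = 0.0167), MUC16 without siControl 2 h replicate 1 (-0.30, adjusted p = 0.0328), and PAX8 with the replicate block and those trends removed (-0.14, adjusted p = 0.0457). Over all genes, same-numbered libraries did not deviate together: 3 of 45 pairs had a correlation of their deviations over 0.1, with a median of 0.012, and 7 of 18 libraries correlated best with their own number. With the replicate block 5 members were called at 0 h, 5 at 2 h, 4 at 8 h and 7 on average, with 3 calls gained and 0 lost: KRT15 at 0 h (0.64 ± 0.15, adjusted p = 0.0131) and 2 h (0.66 ± 0.15, adjusted p = 0.00649), and WFDC2 on average (0.25 ± 0.09, adjusted p = 0.0453). For single genes the number did go with the level: replicate 3 was highest in 6 of 6 groups for KRT15 and in 5 of 6 for MUC16 and WFDC2. WT1 had the fewest counts of the members, at 49 in its lowest library, and the part of depth in its results was not tested.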
